A study of Rattus norvegicus with 6 samples.

Results

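The genes described are 10 that make, store, take up and break down histamine and serotonin, the amines that mast cells and basophils keep in their granules. They were chosen by name, with earlier results of these data known, and each has 1 row among the 22601 of the deposited expression table. By role they are the synthesis genes Hdc, Tph1 and Ddc, the vesicle loading genes Slc18a1 and Slc18a2, the uptake gene Slc6a4, and the breakdown genes Maoa, Maob, Hnmt and Aoc1. RNA-seq was done on wild-type RBL-2H3 cells, a rat basophilic leukemia line that serves as a stand-in for mast cells. PIO, a PPARγ agonist, was given at 10 µM for 6 h in 3 libraries, and 3 control libraries came from cells without it. The labels name neither a vehicle nor a duration for the control, and an effect of these cannot be told apart from one of PIO. They also do not say whether replicates were separate cultures, so the tests weigh differences against a library-to-library spread that may be technical.

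Histamine is made from histidine by histidine decarboxylase. Serotonin is made from tryptophan, first by tryptophan hydroxylase and then by aromatic amino acid decarboxylase. Both amines are pumped into secretory vesicles by vesicular monoamine transporters and are held there by the granule matrix until the IgE receptor triggers release. Outside the granule, serotonin is retrieved by its plasma membrane transporter and oxidised by monoamine oxidases, while histamine is methylated or oxidised by separate enzymes.

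Values are FPKM, that is fragments scaled by gene length and library size, so levels of different genes are compared per length. The FPKM values resolved into whole reads, with totals of 14048202 to 14322720 reads in the PIO libraries and 14105533 to 15084729 in the control libraries. Of 10 mast cell and basophil markers 9 were at or above 1 FPKM in all 6 libraries, and the tryptase gene Tpsab1 was listed at 0. Their summed level was 2901 to 2960 FPKM with PIO and 2911 to 3054 FPKM in control, and 0 of the 9 tested passed by limma with adjustment over all genes tested. Ms4a2, Il1rl1 and Hpgds (3 of the 9) were lower in every PIO library than in every control library, against 8.09% of all genes tested. Il1rl1 and Kit had limma unadjusted p values of 0.00701 and 0.0299 (adjusted p = 0.304 and 0.371). An unadjusted p under 0.05 was reached by 12.5% of all genes tested. The part of these markers in the results was not tested. Control replicate 3 stood apart in the stress factor gene Atf4, which was at 243, 240 and 255 FPKM in PIO replicates 1 to 3, against 279, 277 and 617 FPKM in control replicates 1 to 3. These are bulk samples of a single cell line, so a change in all cells and a change in some of them cannot be told apart.

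The 10 genes fell into a well expressed set and a set with few or no reads, and the line between them ran between storage and uptake. All 5 synthesis and vesicle loading genes were above 6 FPKM in every library, and all 5 uptake and breakdown genes were below 0.2 FPKM in every library. In the order of their levels over the 6 libraries, Hdc lay between 289 and 304 FPKM, Tph1 between 165 and 178 FPKM, and Slc18a2 between 71.1 and 78.5 FPKM. Ddc followed between 13.6 and 15.2 FPKM and Slc18a1 between 6.30 and 7.84 FPKM. None of these ranges overlapped its neighbour. Slc6a4, between 0.137 and 0.192 FPKM, came next, just above the highest Maoa value of 0.134 FPKM, and those 2 neighbours rested on too few reads to be ranked. Hdc stood at rank 223 to 232 among all 22601 rows of a library, Tph1 at rank 432 to 479, and Slc18a2 at rank 1108 to 1258.

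**Figure D1:**
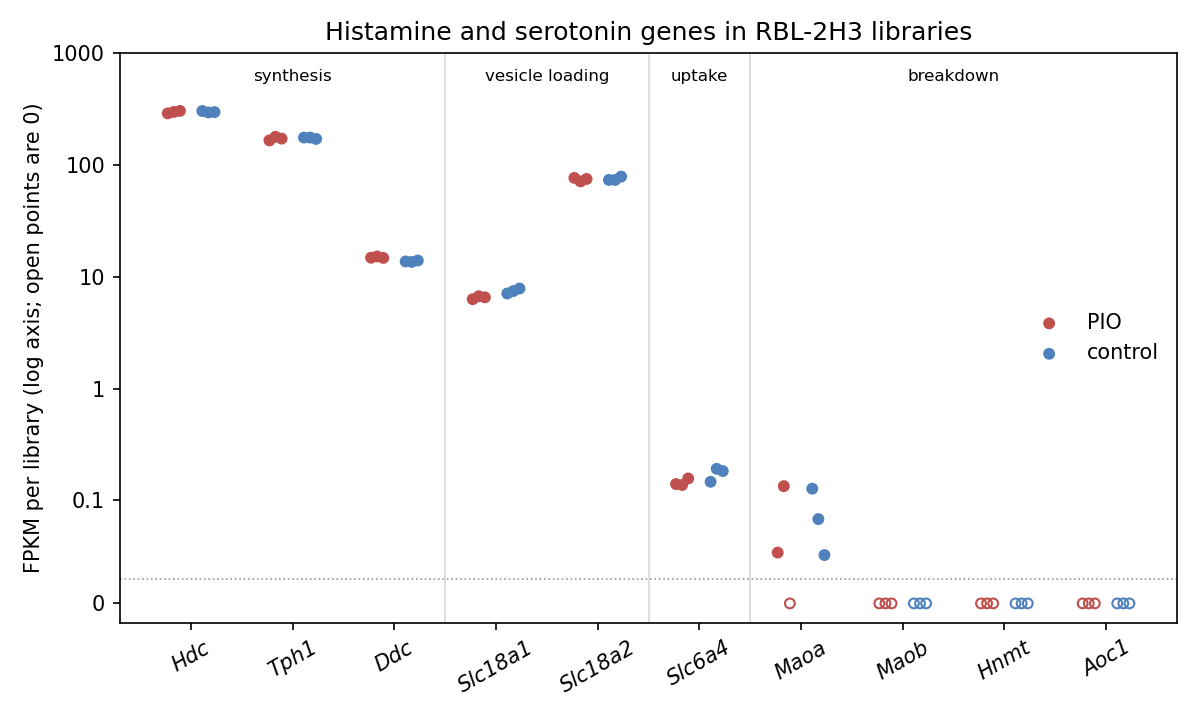
FPKM of the 10 genes in each library on a log axis, PIO libraries in red and control libraries in blue, with open points for values of 0. Hdc, Tph1 and Slc18a2 lie between 71.1 and 304 FPKM in all 6 libraries, whereas Slc6a4 and the 4 breakdown genes lie below 0.2 FPKM.

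None of the 10 genes passed the test between PIO and control. This was limma on log2(FPKM + 0.5) for genes averaging 0.5 FPKM or more over the libraries, with Benjamini-Hochberg adjustment over all 10410 genes tested and a threshold of 0.05. Of the 10 genes 5 were abundant enough to test and 0 were called, against 4 of all genes tested, or 0.0384%. At an unadjusted p under 0.05, 2 of the 5 stood out, against 12.5% of all genes tested. That count was 0 without PIO replicate 1, against 14.1% of all genes tested. It was 1 without any other single library, against 7.09% to 13.8% of all genes tested. Slc18a1 was under 0.05 without PIO replicate 2 or 3 or control replicate 1 or 2, and Ddc without control replicate 3. With all 6 libraries the 2 were Ddc and Slc18a1, which were also the members whose PIO and control values did not overlap, against 18.5% of all genes tested. The log2 fold change was above 0 for 1 of the 5 and below 0 for 4, and its median was -0.02, against 0.01 over all genes tested.

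Hdc (GeneID 24443), the histidine decarboxylase gene, stood at 289, 297 and 304 FPKM in PIO replicates 1 to 3, against 303, 294 and 296 FPKM in control replicates 1 to 3. The groups overlapped fully, with both the lowest and the highest value in a PIO library. The means were 297 ± 7.57 FPKM with PIO and 298 ± 4.56 FPKM in control (SD, n = 3 each). The log2 fold change was -0.01 (SE 0.03, limma adjusted p = 0.956), with a 95% interval of 0.946 to 1.05 for the fold on that scale. Hdc had 9481 to 10002 reads in the PIO libraries and 9703 to 10683 in the control libraries.

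Tph1 (GeneID 24848) encodes the tryptophan hydroxylase of peripheral tissues, the rate-limiting enzyme of serotonin synthesis. It stood at 165, 178 and 172 FPKM in PIO replicates 1 to 3, against 175, 175 and 170 FPKM in control replicates 1 to 3. The control values lay inside the range of the PIO values. The log2 fold change was -0.02 (SE 0.04, limma adjusted p = 0.873), with a 95% interval of 0.932 to 1.05 for the fold. Relative to Hdc, Tph1 was at 0.573, 0.6 and 0.566 of its FPKM in the PIO libraries, against 0.579, 0.597 and 0.576 in the control libraries. This ratio of the entry enzymes of both pathways overlapped between the groups.

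Ddc (GeneID 24311), the aromatic amino acid decarboxylase that turns 5-hydroxytryptophan into serotonin, stood at 14.8, 15.2 and 14.7 FPKM in PIO replicates 1 to 3, against 13.7, 13.6 and 13.9 FPKM in control replicates 1 to 3. Every PIO value was above every control value, a separation that 10.5% of all genes tested showed in the higher direction. The means were 14.9 ± 0.247 FPKM with PIO and 13.7 ± 0.2 FPKM in control (SD, n = 3 each), a difference of 8.48%. Ddc did not pass, with a log2 fold change of 0.11 (SE 0.04, 95% interval 0.01 to 0.22, limma adjusted p = 0.376). Its FPKM were scaled by a length of 9905 bases, the longest among the measured members, against 2339 bases for Hdc. In reads Ddc had 2053 to 2153 per PIO library and 1894 to 2045 per control library. Any part of that length which these cells do not transcribe would lower the FPKM of Ddc relative to the other genes, and this was not tested.

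The sequences before the gene starts are shown for the 4 measured members with a RefSeq entry, because PPARγ acts through binding sites in DNA. PPARγ pairs with a retinoid X receptor on 2 copies of the element AGGTCA in the same direction, set apart by a single base of any kind. Each sequence is the 250 bases before the RefSeq start, 5′ to 3′ on the strand of the gene, in the assembly GRCr8, with matches to AGGTCA on either strand in capitals. They lie at chr3:134318705-134318954 on the minus strand for Hdc, chr1:106314629-106314878 on the minus strand for Tph1, chr14:90682784-90683033 on the minus strand for the first of 3 listed starts of Ddc, and chr1:268399771-268400020 on the plus strand for Slc18a2.
Hdc: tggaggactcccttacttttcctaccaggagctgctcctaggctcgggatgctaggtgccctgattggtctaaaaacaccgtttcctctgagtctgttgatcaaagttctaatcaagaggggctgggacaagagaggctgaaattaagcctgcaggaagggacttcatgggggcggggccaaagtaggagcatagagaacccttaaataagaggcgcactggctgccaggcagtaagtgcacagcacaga
Tph1: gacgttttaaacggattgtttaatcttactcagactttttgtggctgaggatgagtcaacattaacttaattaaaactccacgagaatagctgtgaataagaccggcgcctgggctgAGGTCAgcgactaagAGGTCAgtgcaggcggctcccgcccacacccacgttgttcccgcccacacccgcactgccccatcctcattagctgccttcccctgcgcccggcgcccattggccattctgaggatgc
Ddc: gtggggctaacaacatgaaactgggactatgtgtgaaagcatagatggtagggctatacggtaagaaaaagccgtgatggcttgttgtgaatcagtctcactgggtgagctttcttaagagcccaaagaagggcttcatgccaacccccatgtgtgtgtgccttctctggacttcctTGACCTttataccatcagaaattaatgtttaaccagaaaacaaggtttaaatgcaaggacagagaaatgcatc
Slc18a2: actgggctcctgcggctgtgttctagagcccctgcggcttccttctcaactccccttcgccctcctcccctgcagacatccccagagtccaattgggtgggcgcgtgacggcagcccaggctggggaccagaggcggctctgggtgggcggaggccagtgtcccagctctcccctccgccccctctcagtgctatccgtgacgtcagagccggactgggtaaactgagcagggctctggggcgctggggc
Tph1 holds AGGTCA at bases 133 to 128 and again at bases 118 to 113 before the start, and Ddc holds it on the opposite strand, read as tgacct, at bases 73 to 68. Hdc and Slc18a2 hold none in this window. Over all 8 members with an entry, 4 of 10 starts held AGGTCA, in Tph1, Ddc and Hnmt, against 14.1% of 33465 starts of all genes in windows of the same length. The full repeat was in 0 of the 10 starts and in 17 of the 33465. Of elements tied to mast cell factors, AGATAA, read by GATA factors, matched 1 of the 10 starts (10.3% of all starts), the third one of Ddc. CATGTG and CACGTG, read by Mitf, matched 1 start and 0 starts of the 10 (12.1% and 5.59% of all starts), and the CATGTG match lies in the Ddc window printed above. The elements were searched on both strands. A match is a description of the letters and the lack of one says nothing of a factor.

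Slc18a2 (GeneID 25549) encodes VMAT2, the vesicular monoamine transporter that accepts histamine as well as serotonin. It stood at 76.4, 71.1 and 74.8 FPKM in PIO replicates 1 to 3, against 73.4, 73.3 and 78.5 FPKM in control replicates 1 to 3. The groups overlapped. The log2 fold change was -0.02 (SE 0.04, limma adjusted p = 0.882), with a 95% interval of 0.922 to 1.06 for the fold.

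Slc18a1 (GeneID 25693) encodes VMAT1, the related transporter best known from endocrine cells, which carries serotonin and has little affinity for histamine. It stood at 6.30, 6.69 and 6.54 FPKM in PIO replicates 1 to 3, against 7.08, 7.44 and 7.84 FPKM in control replicates 1 to 3. Every PIO value was below every control value, a separation that 8.09% of all genes tested showed in the lower direction. The means were 6.51 ± 0.198 FPKM with PIO and 7.45 ± 0.383 FPKM in control (SD, n = 3 each), a difference of -12.7%. Slc18a1 did not pass, with a log2 fold change of -0.18 (SE 0.06, 95% interval -0.33 to -0.04, limma adjusted p = 0.341). It had the fewest reads of the 5 tested members, with 531, 575 and 553 reads in the PIO libraries, against 641, 630 and 696 in the control libraries.

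VMAT2 was the main vesicular transporter transcript in every library. Slc18a2 exceeded Slc18a1 by 12.1, 10.6 and 11.4 times in FPKM in PIO replicates 1 to 3, against 10.4, 9.85 and 10.0 times in control replicates 1 to 3. Slc18a1 therefore made up 7.61%, 8.59% and 8.04% of the summed FPKM of both transporters with PIO, against 8.80%, 9.22% and 9.08% in control. The summed FPKM itself was 82.7, 77.8 and 81.3 with PIO, against 80.4, 80.7 and 86.3 in control, and the groups overlapped. The summed FPKM of the synthesis genes overlapped too, at 469, 491 and 490 with PIO, against 492, 483 and 480 in control. These sums and ratios are given as descriptions, without a test.

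Among the 5 tested members, the spread between libraries was below counting error for Ddc, on either side of it for Slc18a1 and above it for Hdc, Tph1 and Slc18a2. The coefficient of variation of Slc18a1 was 3.04% with PIO and 5.14% in control, where counting alone gives 4.25% and 3.91%. For Ddc it was 1.66% with PIO and 1.45% in control, where counting gives 2.19% and 2.24%. Tph1 varied by 3.76% with PIO and 1.67% in control, and its counting error was 0.99% and 0.968%.

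**Figure D2:**
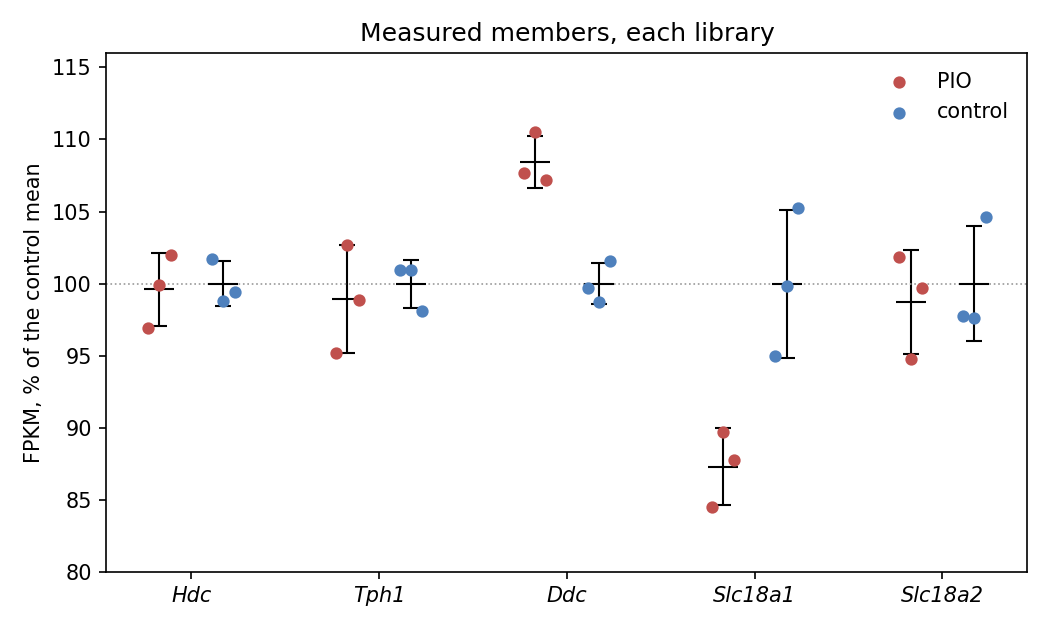
FPKM of the 5 tested genes in each library as a percentage of the control mean, PIO in red and control in blue, with horizontal bars for the mean and lines for the SD (n = 3 per group). The vertical axis starts at 80%. The PIO values of Ddc all lie above the control values and those of Slc18a1 all below, while the groups overlap for Hdc, Tph1 and Slc18a2.

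Slc6a4 (GeneID 25553) encodes the serotonin transporter of the plasma membrane, which retrieves serotonin from outside the cell. It had 8, 8 and 9 reads in PIO replicates 1 to 3, against 9, 11 and 11 in control replicates 1 to 3, which is 0.14, 0.137 and 0.157 FPKM against 0.147, 0.192 and 0.183 FPKM. The groups overlapped in FPKM. Summed over libraries and scaled to their totals, the ratio of PIO to control was 0.835, with an exact 95% interval of 0.473 to 1.46 that covers counting error only. Slc6a4 was below the filter and was not tested.

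The breakdown genes were the least detected. Maoa (GeneID 29253) encodes monoamine oxidase A, the form that prefers serotonin, and had 1, 4 and 0 reads in PIO replicates 1 to 3, against 4, 2 and 1 in control replicates 1 to 3. No direction can be read from so few reads, and the ratio of PIO to control was 0.74 with an exact 95% interval of 0.185 to 2.71 for counting error only. Maob (monoamine oxidase B, GeneID 25750), Hnmt (histamine N-methyltransferase, GeneID 81676) and Aoc1 (diamine oxidase, GeneID 65029) were listed at 0 in all 6 libraries. A count of 0 allows up to 3 reads in a library, for counting error only. A 0 here does not establish absence, since Polr2h, which encodes an RNA polymerase subunit that every cell uses, was listed at 0 in all 6 libraries too.

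The genes around the pathway were taken from 11 lists with 73 names, of which 72 were in the table. Of these genes 31 could be tested, and 0 were called by limma with adjustment over all genes tested, against 0.0384% of all genes tested. At an unadjusted p under 0.05, 6 of the 31 stood out, against 12.5% of all genes tested. When a single library was left out, the count was 1 to 6. It was 1 without PIO replicate 2, against 7.62% of all genes tested, and 3 without PIO replicate 3, against 7.09%. It was 4 without PIO replicate 1 or control replicate 3, against 14.1% and 11.7%. Without control replicate 1 or 2 it was 5 and 6, against 13.8% and 8.6%. With all 6 libraries, 4 of the 31 had PIO values all above the control values and 2 all below. The shares over all genes tested were 10.5% and 8.09%. The median log2 fold change of the 31 was 0.01, as over all genes tested.

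The cofactors of the synthesis enzymes were expressed throughout. All 7 genes of tetrahydrobiopterin, the cofactor of tryptophan hydroxylase, could be tested, with 3 higher, 4 lower and a median log2 fold change near 0 (-0.0044). Gch1, the GTP cyclohydrolase gene that starts this synthesis, averaged 31.5 ± 1.27 FPKM with PIO and 33.2 ± 0.718 FPKM in control (SD, n = 3 each). Gchfr, which encodes the feedback regulator of that cyclohydrolase, averaged 20.9 ± 1.64 FPKM with PIO and 17.9 ± 1.09 FPKM in control. Its groups did not overlap, and it did not pass (log2 fold change 0.22, limma adjusted p = 0.339). The sepiapterin reductase gene Spr averaged 17.5 ± 1.07 FPKM with PIO and 15.8 ± 0.806 FPKM in control and did not pass (0.14, limma adjusted p = 0.411). All 4 genes of pyridoxal phosphate, the cofactor of both decarboxylases, could be tested, with 3 higher and 1 lower. Pdxp, the phosphatase that removes the phosphate from this cofactor, averaged 10.2 ± 0.415 FPKM with PIO and 8.58 ± 1.15 FPKM in control. Its groups did not overlap, and it did not pass (0.24, limma adjusted p = 0.371). Without control replicate 3 the log2 fold change of Pdxp was 0.14 (limma adjusted p = 0.449).

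Of 6 transporters that bring histidine or tryptophan into cells or out of lysosomes, 3 could be tested and 3 were listed at 0. Slc7a5 and Slc3a2 encode the light and heavy chains of the large neutral amino acid transporter. Slc7a5 stood at 68.7, 64.9 and 71.1 FPKM with PIO, against 73.0, 70.6 and 122 FPKM in control. Control replicate 3, the library with high Atf4, was alone at the high value. The log2 fold change of Slc7a5 was -0.33 (limma adjusted p = 0.483) with that library and -0.07 (limma adjusted p = 0.564) without it. Slc3a2 went the same way, at 104, 104 and 108 FPKM with PIO, against 106, 105 and 163 FPKM in control. Its log2 fold change was -0.21 (limma adjusted p = 0.575) and, without control replicate 3, close to 0 (-1e-04, limma adjusted p = 0.999). Without this library, the log2 fold changes were -0.01 for Hdc, -0.03 for Tph1, 0.12 for Ddc, -0.15 for Slc18a1 and 0.01 for Slc18a2.

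None of 6 genes of other aromatic amine synthesis could be tested. Tph2 (the tryptophan hydroxylase of neurons), Th (tyrosine hydroxylase) and Dbh (dopamine beta-hydroxylase) were listed at 0. Among 6 genes of competing histidine and tryptophan use, Tdo2 was listed at 0, and Ido2, an indoleamine dioxygenase gene, averaged 0.712 ± 0.0896 FPKM with PIO and 0.659 ± 0.0903 FPKM in control. Only Afmid, a formamidase of the kynurenine route, was above 1 FPKM in every library of that list, with 37.0 ± 1.1 FPKM with PIO and 38.4 ± 2.92 FPKM in control (SD, n = 3 each).

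The granule matrix gene Srgn, whose serglycin core carries the sulfated chains that hold amines, was the most abundant gene of its list. It averaged 1730 ± 43.4 FPKM with PIO and 1697 ± 63.5 FPKM in control (SD, n = 3 each; log2 fold change 0.03, limma adjusted p = 0.781). Of the low-affinity amine transporters, only Slc29a4 (the plasma membrane monoamine transporter PMAT) was measured well, at 5.97, 5.97 and 5.57 FPKM with PIO, against 5.48, 4.85 and 5.73 FPKM in control. It did not pass (0.12, limma adjusted p = 0.544). The organic cation transporter gene Slc22a3 was listed at 0.

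Downstream of the oxidases the picture differed from that of the oxidases themselves. Of 7 aldehyde dehydrogenase and reductase genes that act on the aldehyde products, 6 could be tested, all above 10 FPKM in every library, with 4 higher and 2 lower. Aldh2 averaged 87.2 ± 3.12 FPKM with PIO and 83.2 ± 2.4 FPKM in control (SD, n = 3 each). Aldh7a1 stood at 41.8, 44.1 and 42.8 FPKM with PIO, against 40.6, 39.9 and 38.1 FPKM in control. Its groups did not overlap, and it did not pass (0.12, limma adjusted p = 0.357). Sat1, which encodes an acetyltransferase of polyamines and belongs to the list of other amine breakdown and use, averaged 38.5 ± 1.62 FPKM with PIO and 41.2 ± 2.01 FPKM in control. Its groups overlapped, and it did not pass (-0.10, limma adjusted p = 0.46).

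Of the receptors for the released amines, 1 of 4 histamine receptors and 2 of 14 serotonin receptors could be tested. Hrh4, a histamine receptor of mast cells and other blood cells, stood at 30.5, 30.4 and 29.4 FPKM with PIO, against 31.4, 28.8 and 31.3 FPKM in control (-0.02, limma adjusted p = 0.879). Hrh1, Hrh2 and Hrh3 were listed at 0 in all 6 libraries. Htr2a, a serotonin receptor coupled to phospholipase C, stood at 3.77, 3.48 and 3.72 FPKM with PIO, against 4.06, 4.93 and 4.36 FPKM in control. The groups did not overlap, and Htr2a did not pass (-0.25, limma adjusted p = 0.34). Htr1b overlapped, at 0.792 ± 0.129 FPKM with PIO and 0.827 ± 0.384 FPKM in control (SD, n = 3 each).

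Gata2 and Mitf are transcription factors tied in mouse mast cells to Hdc and Tph1. Gata2 averaged 512 ± 11 FPKM with PIO and 502 ± 7.58 FPKM in control (SD, n = 3 each; log2 fold change 0.03, limma adjusted p = 0.739). Mitf stood at 27.2, 26.7 and 26.4 FPKM with PIO, against 29.4, 31.3 and 32.4 FPKM in control. Every PIO value was below every control value, and Mitf had the smallest unadjusted p of the 31 genes but did not pass (-0.21, SE 0.05, limma adjusted p = 0.27). Its adjusted p lay between 0.167 and 0.646 over the 15 alternative settings. The levels of Hdc and Tph1 overlapped between the same groups.

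**Figure D3:**
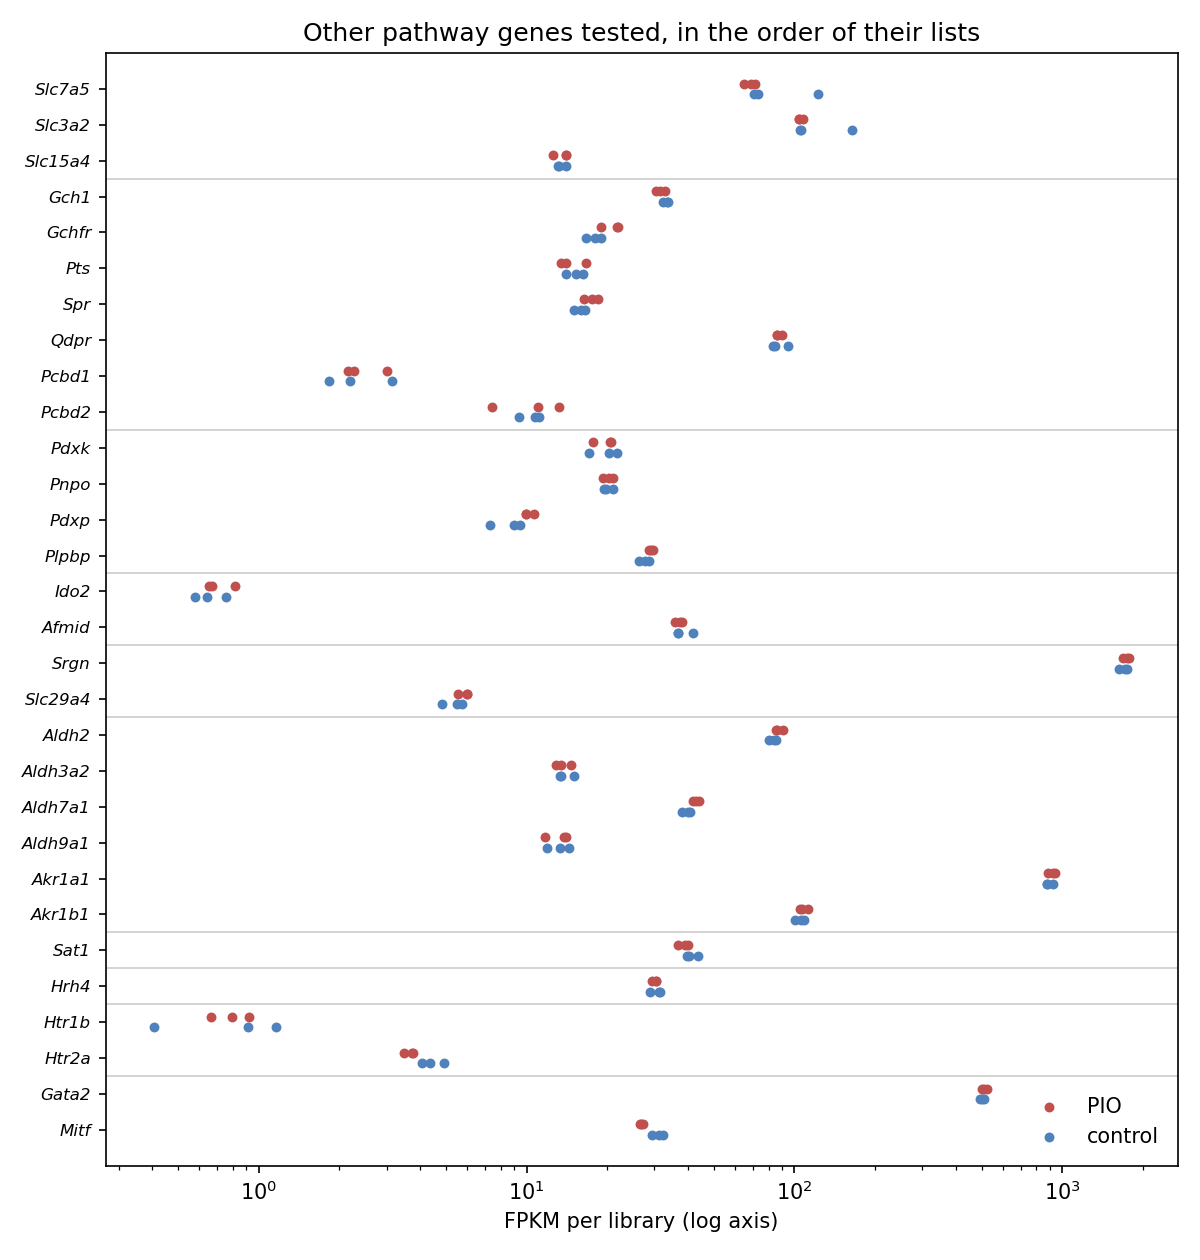
FPKM of 30 of the 31 tested pathway genes in each library on a log axis, PIO in red above control in blue, in the order of their lists, which grey lines separate. Control replicate 3 lies alone at the right for Slc7a5 and Slc3a2, and the PIO values of Mitf and Htr2a all lie to the left of the control values.

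**Figure D4:**
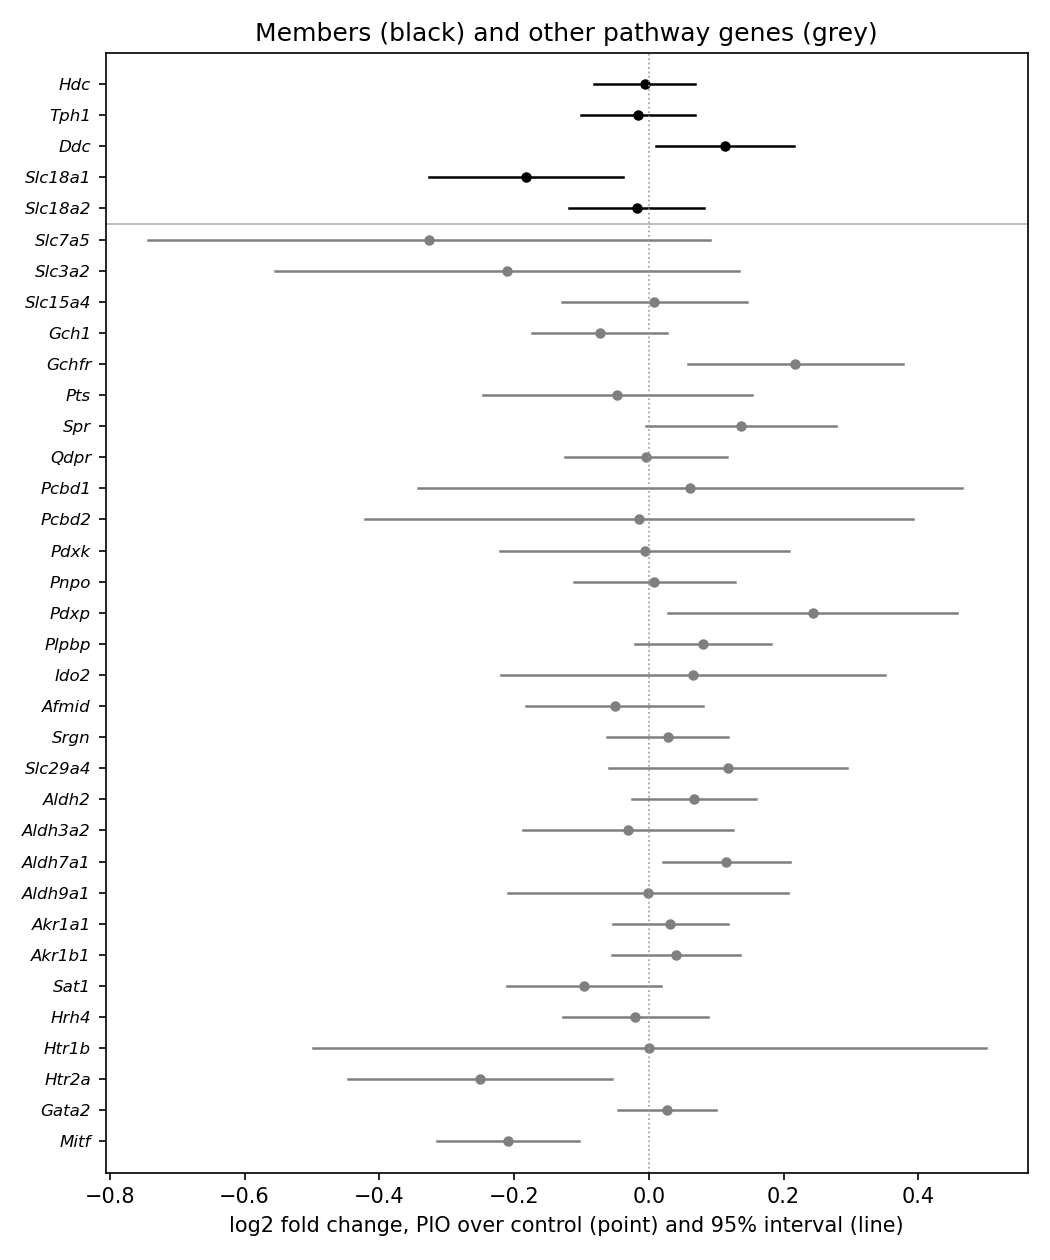
Log2 fold change of PIO over control on the log2(FPKM + 0.5) scale for the 5 tested members (black) and 30 of the 31 tested pathway genes (grey), with 95% limma intervals that are not adjusted for the number of genes. The intervals of Hdc, Tph1 and Slc18a2 span 0 and stay within 0.12 of it on either side, whereas that of Slc7a5 reaches from -0.74 to 0.09.

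Slc18a1 and Ddc varied most over the 6 libraries among the members with a mean of at least 5 FPKM. The genes with the most similar pattern were found by the root mean square difference of centred log2 values over the 6 libraries, among 7758 other genes. For Slc18a1 they were Samsn1, Fam198b and Cep41, with differences of 0.0255, 0.0268 and 0.0273 against a median of 0.125 over all genes compared. Samsn1 stood at 44.5, 46.2 and 44.7 FPKM with PIO, against 49.4, 49.8 and 52.3 FPKM in control. For Ddc they were Cdc5l, Hdgfrp2 and Prkaca, with differences of 0.011, 0.0111 and 0.0145 against a median of 0.0849. Prkaca stood at 58.6, 60.8 and 59.1 FPKM with PIO, against 54.4, 54.7 and 54.6 FPKM in control. With 6 libraries in 2 groups, many genes can share such a pattern.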

How the data were processed

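RNA came from TRIzol extraction, and a stranded mRNA kit was used for the libraries, per the labels' protocols. The authors deposited FPKM per gene and library. HTSeq, DESeq, Cufflinks, SAMtools 1.3.1, HISAT2 2.2.1.0, Trimmomatic 0.36, BWA 0.7.5a and FastQC 0.11.5 are named per the submitters' processing notes, with roles not given in the sources used here. These notes also name a human build, GRCh38, although the deposited genes are rat genes, so the build behind the FPKM is unclear. Coordinates are printed only for RefSeq gene starts of the rat assembly GRCr8.

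The deposited FPKM resolved into whole reads (tolerance 1e-04 of a read) for 15427 genes, or 99.99% of those above 0, which hold at least 99.5% of each library total. Testing used limma 3.58.1 (R 4.3.3) on log2(FPKM + 0.5) for genes with a mean FPKM of 0.5 or higher. The model held the group alone and a variance trend, tests were two-sided, and Benjamini-Hochberg adjustment covered all genes tested. Fold changes on this scale understate those of low genes. Tables and figures were made in Python 3.11.15 (pandas 2.3.3, numpy 2.4.6, matplotlib 3.10.9, scipy 1.17.1). The code was tested on simulated data.

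The members and lists were chosen with earlier results of these data known. All members are named, and from each list up to 4 tested genes with the smallest p, plus genes listed at 0 or highest in their list. Alternatives were pseudocounts of 0.1 and 1, no filter, a minimum mean of 5 FPKM, scaling to TPM or by median of ratios, no variance trend, a replicate block, omission of single libraries, and limma-voom on the recovered reads. Aoc2 was not analysed here, and a few pathway genes that enter the counts are not reported here by name.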

Additional observations from a re-analysis of the deposited data

How the results depend on the processing

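No member and no pathway gene was called under any of the 15 alternatives. The lowest limma adjusted p of a member was 0.257, for Slc18a1 with limma-voom on the recovered reads. Over the alternatives Ddc kept its direction (log2 fold change 0.09 to 0.12, limma adjusted p 0.276 to 0.69), and so did Slc18a1 (-0.22 to -0.15, limma adjusted p 0.257 to 0.68). The limma unadjusted p of Ddc was 0.0343 in the main fit, 0.119 with TPM scaling and 0.0683 with the replicate block. For Slc18a1 it was 0.0193, 0.0138 and 0.0294. An unadjusted p under 0.05 was reached by 12.5%, 11.8% and 11.7% of all genes tested. The other 3 tested members turned sign when single libraries were left out, with log2 fold changes of -0.023 to 0.0136 for Hdc, -0.0435 to 0.0106 for Tph1 and -0.04 to 0.0148 for Slc18a2. Hdc turned positive without PIO replicate 1 (0.0136) or control replicate 1 (0.0066), Tph1 without PIO replicate 1 (0.0106), and Slc18a2 without PIO replicate 2 (0.0112) or control replicate 3 (0.0148). The count of genes called over all tested was 4 and became 1 with no filter on low values, 2 without a variance trend and 7 with limma-voom, and it was 3 to 4 when a library was left out. TPM scaling moved the median log2 fold change of all genes tested to -0.02. The replicate number as a block gave 3 genes called and 0 members. Libraries that share a number deviated together little (correlations across genes of -0.0682, 0.0277 and 0.0776). For libraries with different numbers the correlations lay between -0.094 and 0.0822. With 3 libraries per group, these values show no sign of pairing and cannot exclude it. Too few reads limit Slc6a4 and Maoa, and 3 members were listed at 0.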

Other observations

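Platelets also store serotonin, and markers of platelets and megakaryocytes were uneven in these libraries. Pf4, a platelet chemokine gene, lay between 2458 and 2815 FPKM, Ppbp between 178 and 204 FPKM and Itga2b between 10.3 and 11.6 FPKM, while Gp9 stayed at or below 0.249 FPKM and Gp1bb was listed at 0. The summed level of these 5 genes was 2846 to 3008 FPKM with PIO and 2674 to 2849 FPKM in control, and most of it was Pf4. Pf4 was higher in every PIO library than in every control library, as were 10.5% of all genes tested. Its log2 fold change was 0.08, against -0.06 for Itga2b and -0.05 for Ppbp, whose groups overlapped. By limma with adjustment over all genes tested, 0 of the 3 tested passed.

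Enterochromaffin cells of the gut also express Ddc and Slc18a1. Of 8 markers of these cells and of neurons, Th, Dbh, Snap25 and Neurod1 were listed at 0, Chga and Chgb stayed at or below 0.433 FPKM, and Syp and Tubb3 were between 2.86 and 4.04 FPKM. The summed level was 7.44 to 8.45 FPKM with PIO and 6.45 to 7.05 FPKM in control. These libraries came from a single cell line, and the part of these markers in the values of Ddc and Slc18a1 was not tested. Syp, which encodes a synaptic vesicle protein, was higher in all 3 PIO libraries, as were 10.5% of all genes tested. It did not pass (limma adjusted p = 0.371). Summed markers of fibroblasts (4.69 to 4.99 FPKM with PIO and 5.12 to 5.61 FPKM in control) and of T and B cells (0.934 to 1.51 FPKM with PIO and 1.58 to 1.75 FPKM in control) were lower in the PIO libraries. Summed macrophage markers overlapped (1.77 to 2.08 FPKM with PIO and 1.68 to 1.95 FPKM in control).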
